A study of Mus musculus with 4 samples.

Results

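The Dlk1-Dio3 imprinted domain of mouse chromosome 12 was examined by the open chromatin regions called between positions 109300000 and 110400000 (mm10), an interval of 1100 kb that holds 6 genes: Dlk1, Meg3, Rtl1, Rian, Mirg and Dio3. Peaks of all 4 libraries were joined where they overlapped by at least 1 bp, which gave 164 regions here of 208211 in all. Of these, 102 regions of 122787 were called in all 4 libraries and are referred to as shared. Each region was assigned to the nearest of the 6 genes. The domain was chosen by the −log10 p ranks of its peaks in these same 4 libraries, which were higher in the mutant cells, so the ranks below describe that choice and carry no test.

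The assay was ATAC-seq, which marks DNA that the Tn5 transposase can reach, in mouse embryonic stem (mES) cells. There were 2 wt libraries and 2 Hox-/- libraries. The Hox-/- cells, from a study of stem cell embryo models without Hox function, carry the letters BADC in their library names. Both genotypes were grown with serum, LIF, the GSK-3 inhibitor CHIR99021 and the MEK inhibitor PD0325901. The labels give no strain, sex, clone or passage, and they do not say whether replicates came from separate cultures, so a spread between replicates may be technical. With 2 libraries against 2, an exact permutation test cannot give a p below 0.33. In the 4 Hox clusters the wt libraries listed 183 and 188 peaks, and the Hox-/- libraries 6 and 4. All 6 of the ES cell genes looked at (Pou5f1, Sox2, Nanog, Klf4, Esrrb and Zfp42) had a peak in every library.

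Imprinted genes are expressed from the copy inherited from 1 parent. In this domain the protein-coding genes Dlk1, Rtl1 and Dio3 are expressed from the paternal copy, and the long non-coding RNAs Meg3, Rian and Mirg, with many small nucleolar RNAs and miRNAs, from the maternal copy. The interval between Dlk1 and Meg3 holds the intergenic differentially methylated region that sets this pattern, and mouse pluripotent stem cell lines are known to vary in how well they keep it. ATAC-seq reads from the parental copies are not separated here.

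The starts of the 3 members that lie under a called region are shown first, because calls there bear on the genes directly. The sequences are the 250 bases before each RefSeq start (GRCm38.p6, plus strand, 5′ to 3′), at chr12:109452573-109452822 for Dlk1, chr12:109540746-109540995 for Meg3 and chr12:110278980-110279229 for Dio3. Capitals mark a match to TGCCGC, the core motif of the imprint-protecting factor ZFP57, on either strand.
Dlk1: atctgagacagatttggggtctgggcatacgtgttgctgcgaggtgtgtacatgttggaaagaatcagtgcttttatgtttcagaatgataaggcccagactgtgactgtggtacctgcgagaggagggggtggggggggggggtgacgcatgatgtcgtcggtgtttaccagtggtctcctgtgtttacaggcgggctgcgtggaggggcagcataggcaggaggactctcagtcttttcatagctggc
Meg3: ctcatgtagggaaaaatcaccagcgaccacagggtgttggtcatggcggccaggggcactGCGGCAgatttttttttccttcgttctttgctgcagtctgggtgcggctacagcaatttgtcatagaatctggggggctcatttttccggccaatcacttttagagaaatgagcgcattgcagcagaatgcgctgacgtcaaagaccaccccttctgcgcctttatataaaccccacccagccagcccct
Dio3: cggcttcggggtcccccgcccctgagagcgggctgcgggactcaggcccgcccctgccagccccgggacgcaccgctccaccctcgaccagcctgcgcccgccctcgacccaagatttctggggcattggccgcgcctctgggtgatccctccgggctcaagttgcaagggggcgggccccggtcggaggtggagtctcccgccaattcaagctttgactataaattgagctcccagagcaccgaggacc
The Meg3 window held 1 TGCCGC match, on the minus strand, and 8.68% of the 32851 promoter windows of the same length hold at least 1. No match to CCATNTT (YY1; 12.4% of all windows) or to a CTCF core motif (0.0335%) was found in these 3 windows on either strand. The motifs share no overlapping match here. The Dio3 window held 21 CpG sites, the Meg3 window 10 and the Dlk1 window 8, beside a median of 6 over all windows.

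The RefSeq table places 61 miRNA genes in the domain, 3 of them by their mature arms alone because it lists no hairpin for them, and 60 lie between the start of Meg3 and the end of Mirg. Of these genes, 11 overlap a shared region, and they fall in 7 shared regions. In 6 of those 7 both Hox-/- libraries ranked the region higher by peak −log10 p than both wt libraries did, an order found in 20.5% of all shared regions. Ranked by fold enrichment, 2 of the 7 had that order, beside 21.3% of all. A mature miRNA from each of the 6 regions is shown 5′ to 3′ with its seed, bases 2 to 8, in capitals.
miR-540-3p: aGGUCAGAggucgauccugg
miR-136-5p: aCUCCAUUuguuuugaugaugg
miR-370-3p: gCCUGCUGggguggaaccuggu
miR-543-3p: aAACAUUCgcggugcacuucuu
miR-300-3p: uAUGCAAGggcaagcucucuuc
miR-377-3p: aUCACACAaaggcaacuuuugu
These 6 seeds differ from each other and no other mature miRNA of the domain shares one of them. Among all 114 mature entries of the domain, 10 seeds occur more than once, such as GGUAGAC in miR-379-5p and miR-1193-5p.

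Across the whole domain, the Hox-/- libraries ranked regions higher more often than the wt libraries did. The median shift was largest from just upstream of Meg3 into Rian, but most of the regions with that order lay elsewhere in the domain. For each library, the shared regions of the genome were ranked by the deposited −log10 p of their strongest peak, with rank 1 the strongest. The shift of a region is the mean log2 rank in wt minus the mean log2 rank in Hox-/-, so a positive shift means a higher rank in Hox-/- and a shift of 1 is a doubling of rank. The median shift was 0.10 over the 102 shared regions of the domain, 0.0045 over all shared regions and 0.02 over chromosome 12. The per-library medians of the log2 rank relative to the mean of the 4 libraries were −0.09 and −0.07 in wt, and 0.07 and 0.05 in Hox-/-, with positive values higher. The genotypes did not overlap in this median.

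Both Hox-/- libraries ranked higher than both wt libraries in 39 of 102 shared regions (38.2%, where the share over all shared regions was 20.5%). The opposite order held in 12 regions (11.8%, beside 20.3% over all). A shift of at least 1 occurred in 3 of 102 regions, beside 0.284% over all, and a shift of at most −1 in 1 of 102, beside 0.257%. The shift was positive in 70 of 102 regions, beside 50.8% over all. Removing a library loosens the rule. Regions ranked higher were then 53 of 103 and 55 of 102 with the first or the second wt library removed, beside 34.3% and 34.5% over all. They were 60 of 108 and 57 of 111 with the first or the second Hox-/- library removed, beside 35.9% and 37.1%. Regions ranked lower were 20 of 103 with the first wt library removed and 23 of 102 with the second, beside 33.8% and 33.9% over all. They were 24 of 108 with the first Hox-/- library removed and 25 of 111 with the second, beside 35.7% and 36.02%. In the 1 Mb before the domain the median shift was −0.05, with 12 of 100 shared regions higher and 33 lower in both Hox-/- libraries. In the 1 Mb after it the median was −0.02, with 18 of 124 higher and 30 lower.

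**Figure D1:**
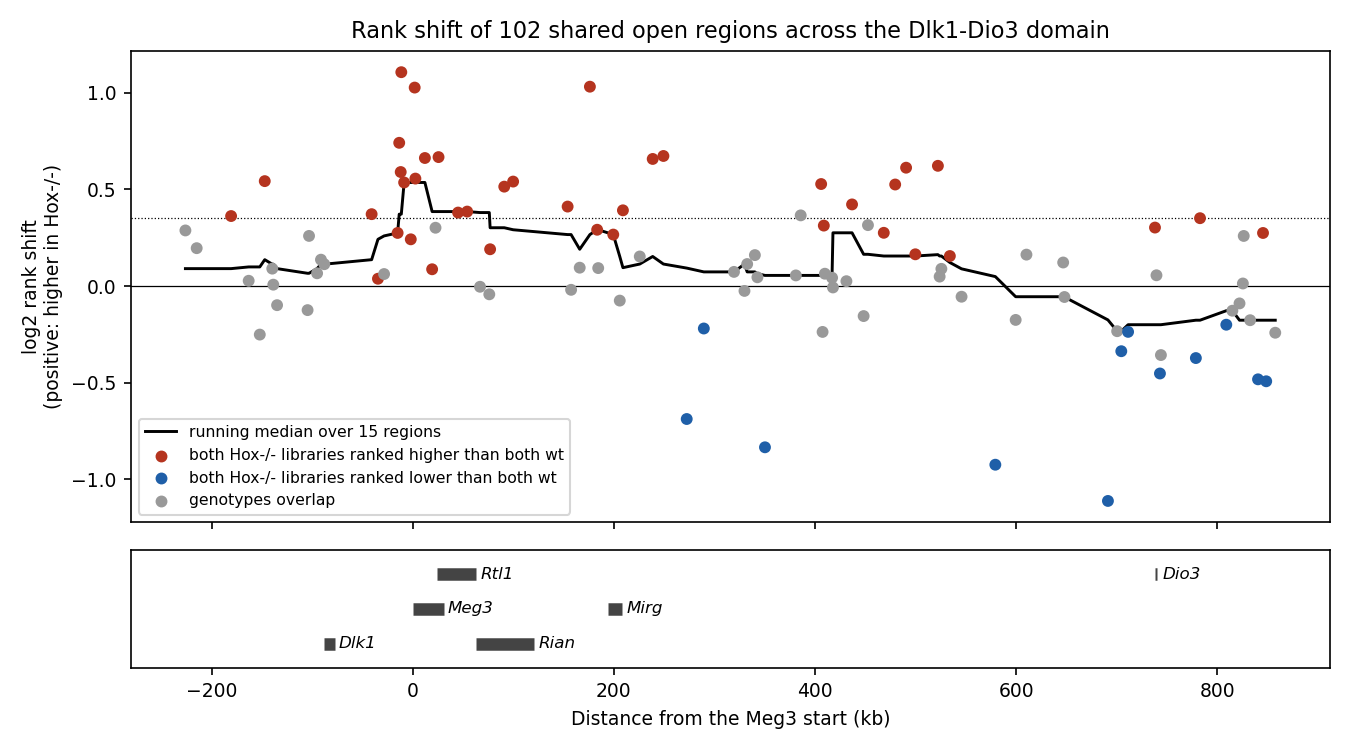
Shift of each of the 102 shared regions (log2 rank; positive is higher in Hox-/-) against distance from the Meg3 start in kb, coloured by whether the genotypes overlap; the line is the running median over 15 shared regions, the dotted line 0.35, and gene bodies are drawn below. The running median reaches 0.54 just upstream of Meg3 and falls below 0 before Dio3.

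Smoothing located the shift. The running median over 15 consecutive shared regions stayed at or above 0.35 from chr12:109527441 to chr12:109617420, a stretch of 90.0 kb and 15 shared regions that begins 13.6 kb before the Meg3 start and ends inside Rian. Over the genome 0.749% of shared regions have a running median that high, in 87 stretches, and 26 of those hold at least 15 regions. In this stretch the median shift was 0.54, 13 of 15 regions had a positive shift, and 12 of 15 ranked higher in both Hox-/- libraries with 0 lower. In the domain without the stretch, 27 of 87 regions ranked higher in both Hox-/- libraries, beside the 20.5% over all, 12 ranked lower, and the median shift was 0.07. The highest running median, 0.54, was first reached at the region that starts at chr12:109532088. The threshold fixes these ends only roughly. At 0.25 the stretch ran from chr12:109512141 to chr12:109699114, and at 0.45 from chr12:109532088 to chr12:109553619. Without Hox-/- replicate 2 the stretch ended at chr12:109553590, inside Meg3, and without wt replicate 2 it ran from chr12:109512141 to chr12:109632390.

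Single regions on either side of each end show how the threshold divides them. The last shared regions before the stretch, at chr12:109512141-109512969 and chr12:109525663-109526377, had shifts of 0.06 and 0.27. The first inside, at chr12:109527441-109527767 and chr12:109528802-109529375, had shifts of 0.74 and 0.59. At the right end the last inside were 2 regions in Rian, chr12:109607723-109608197 and chr12:109616934-109617420, with shifts of −0.0036 and −0.04. The next regions outside, chr12:109617628-109618352 and chr12:109631723-109632390, had shifts of 0.19 and 0.51. Counted without smoothing, 21 consecutive shared regions from chr12:109437551 to chr12:109595464 had a positive shift, and 10 consecutive regions from chr12:109525663 to chr12:109560610 ranked higher in both Hox-/- libraries. That unbroken run covers 34.9 kb, from 15.3 kb before the Meg3 start to 19.6 kb inside the gene.

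The result depended on ranking by −log10 p. Ranked instead by the authors' fold enrichment at the summit, the 15 regions of the stretch had a median shift of 0.08, with 5 higher (33.3%, beside 21.3% over all shared regions) and 2 lower in both Hox-/- libraries (beside 18.9%). Over the 102 regions of the domain 28 were higher and 16 lower by fold. The highest running median within the stretch was then 0.08. Elsewhere in the domain it reached 0.23, at regions in the gap before Dio3, and nowhere in the domain 0.35, while over all shared regions it reached 0.67. For a peak of a given fold, −log10 p grows with the number of reads, at the peak and around it.

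**Figure D2:**
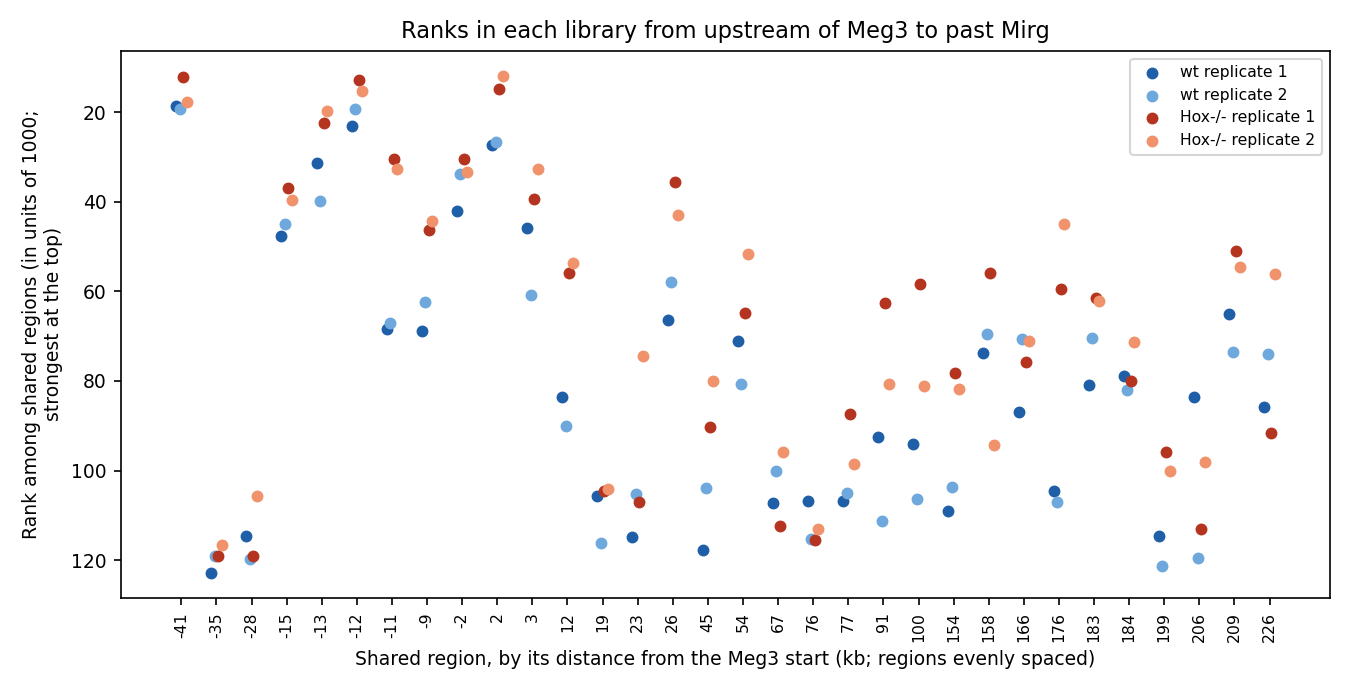
Rank of each shared region in the 4 libraries from 41 kb before to 226 kb after the Meg3 start (in units of 1000, strongest at the top), with regions evenly spaced. Both Hox-/- points lie above both wt points in the 10 consecutive regions from −15 to 19 kb.

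The interval between Dlk1 and Meg3, which holds the intergenic control region, held the region with the largest shift towards Hox-/- by −log10 p. Ranked by fold, the largest shift in the domain was 0.89, at chr12:109789759-109790870 past Mirg. The interval contained 9 shared regions, all with a positive shift, and the median shift was 0.37. Of the 9, 8 ranked higher in both Hox-/- libraries, beside 20.5% over all shared regions. Ranked by fold, 7 of the 9 had a positive shift, 3 ranked higher in both, beside 21.3% over all, and the median was 0.03. The region at chr12:109529496-109529874, centred 11.3 kb before the Meg3 start, ranked 68429 and 67139 in wt and 30340 and 32669 in Hox-/-, a shift of 1.11. Its fold enrichment was 2.84 and 2.96 in wt and 3.82 and 3.77 in Hox-/-. Its ranks and its folds thus both separated the genotypes with little spread within each. The first region of the stretch, at chr12:109527441-109527767, ranked 31386 and 39738 in wt and 22521 and 19827 in Hox-/-. Its fold, 4.41 and 4.02 against 4.33 and 4.77, overlapped between genotypes although its ranks did not. Ranked by fold among the shared regions, at 90181 and 98786 in wt and 87670 and 79584 in Hox-/-, it did not overlap.

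Meg3, the maternally expressed non-coding RNA at the head of the long maternal transcription unit, spans chr12:109540996-109571729. The 6 shared regions inside its body had a median shift of 0.61, and 5 ranked higher in both Hox-/- libraries, beside 20.5% over all shared regions. Among them, chr12:109566487-109566932, lies where Meg3 and Rtl1 overlap and is assigned to Rtl1. Ranked by fold, 2 of the 6 were higher, beside 21.3% over all, and the median shift was 0.14. The region at chr12:109542717-109543250, centred 1.99 kb inside the gene, ranked 27393 and 26721 in wt and 14898 and 11837 in Hox-/-, a shift of 1.03. Its fold was 7.14 and 7.39 in wt and 7.82 and 8.57 in Hox-/-, so the genotypes separated on this measure too. The Meg3 start itself behaved differently. The region over it, chr12:109540830-109541091, which overlaps the sequence printed above, was called in both wt libraries and in Hox-/- replicate 1, at ranks 132744, 150717 and 85202 of each library's own list, and was not called in Hox-/- replicate 2. It is therefore not among the shared regions and has no shift.

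Further along the maternal unit the median shifts by −log10 p were smaller. Rtl1, which encodes a retrotransposon-derived protein needed in the placenta and lies on the opposite strand to the maternal RNAs, had 3 nearest shared regions, all higher in both Hox-/- libraries, with a median shift of 0.39. Rian, which hosts small nucleolar RNAs, had 6, of which 4 were higher, with a median of 0.30. Mirg, which hosts the large miRNA cluster, had 32 because all regions across the gap towards Dio3 up to the midpoint are nearest to it, with 10 higher, 3 lower and a median of 0.09. These counts stand beside the 20.5% higher and 20.3% lower over all shared regions. Ranked by fold, the regions nearest to Rtl1 included 0 of 3 higher with a median shift of 0.07, those nearest to Rian 3 higher and 2 lower of 6 with 0.11, and those nearest to Mirg 8 higher and 5 lower of 32 with 0.02. No region within 1 kb of the lower end of Rian, chr12:109603945, was called in any library. The region nearest to the lower end of Mirg was called in Hox-/- replicate 2 alone. Just past the upper end of Mirg the region at chr12:109749730-109750364 ranked 65152 and 73492 in wt and 50904 and 54646 in Hox-/-, a shift of 0.39.

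Among the shared regions with a miRNA gene, the largest shift was at Mir543 and Mir666. The region chr12:109716900-109717521, between Rian and Mirg, ranked 104514 and 106916 in wt and 59424 and 45016 in Hox-/-, a shift of 1.03. Its fold was 4.26 and 4.18 in wt and 5.98 and 6.81 in Hox-/-, with no overlap. The region with Mir540 and Mir665 had a shift of 0.38, that with Mir432, Mir136 and Mir3071 0.39, that with Mir300 0.29, that with Mir377 0.27 and that with Mir370 0.19. The region with Mir770 had a shift of 0.30, and there the genotypes overlapped. Mir673, Mir134 and Mir369 lay in regions that a single Hox-/- library called.

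On the paternal side, Dlk1, which encodes a transmembrane protein of the Notch ligand family, had 15 nearest shared regions with a median shift of 0.11. Of these, 3 were higher in both Hox-/- libraries, a share close to the 20.5% over all shared regions, and 0 were lower, beside 20.3%. Ranked by fold, 2 were higher, 0 lower and the median was 0.05. The region at its start, chr12:109452806-109453400, was called in all 4 libraries and ranked 80502 and 99904 in wt and 77534 and 88682 in Hox-/-. These ranks overlap between genotypes.

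Dio3, which encodes the deiodinase that inactivates thyroid hormone, lay outside the shift. Its 33 nearest shared regions had a median shift of −0.06, with 8 higher and 9 lower in both Hox-/- libraries (24.2% and 27.3%, beside 20.5% and 20.3% over all). From the gene body to the right end of the domain 15 shared regions had a median of −0.18, with 2 higher and 5 lower (13.3% and 33.3%). Ranked by fold, the 33 regions had a median shift of 0.002, with 10 higher and 9 lower. A running median of at most −0.15 was found at 18 of 102 regions, beside 4.42% over all. The running median fell below 0 at chr12:110140393 and stayed there to chr12:110486393, past the end of the domain, with its lowest value in the domain, −0.23, at the region that starts at chr12:110241296. At its start the region chr12:110278751-110279418 ranked 46263 and 31886 in wt and 31746 and 30546 in Hox-/-. Both Hox-/- ranks were higher, by little against wt replicate 2. The region at its upper end, chr12:110280332-110280788, ranked 37179 and 40785 in wt and 37986 and 36949 in Hox-/-, with a shift of 0.06.

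The largest shifts towards wt all lay between Mirg and the right end of the domain. At chr12:110232055-110232554, which lies 46676 bp before Dio3, the ranks were 43496 and 52951 in wt and 97222 and 110592 in Hox-/-, a shift of −1.11. The fold there was 10.5 and 9.22 in wt and 4.51 and 3.59 in Hox-/-. So the region that moved most towards wt did so on both measures. At chr12:110120091-110120607 the shift was −0.92, at chr12:109890814-109891756 −0.83, at chr12:109812852-109814109 −0.69 and at chr12:110389381-110389972 −0.49. Between Mirg and Dio3 there were also regions that ranked higher in Hox-/-, such as chr12:109789759-109790870 with a shift of 0.67. In that gap 13 of 43 shared regions were higher and 7 lower in both Hox-/- libraries (30.2% and 16.3%, beside the same shares over all). The 5 regions with the best mean rank in the domain, among them chr12:109947970-109949153 at ranks 4156, 5687, 5904 and 5562, lay in the gap or past Dio3. The genotypes overlapped in all 5 by −log10 p. Ranked by fold, chr12:109958530-109959228 was lower in both Hox-/- libraries, with a shift of −0.95, and chr12:109880887-109881628 was higher in both, with 0.39.

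Local background, the read density around a peak that the peak caller compares it with, also differed between genotypes from before Dlk1 to just past Mirg. It was solved for each peak from its deposited fold and −log10 p, and is given as a multiple of the library's own floor. This measure was chosen after the ranks were seen, and it comes from the same values. Over the 15 regions of the stretch the median local background was 1.86 and 1.75 times the floor in wt and 3.19 and 3.24 in Hox-/-. It was higher in both Hox-/- libraries than in both wt libraries, by a margin of over 5%, in 15 of 15 regions, where the share over all shared regions was 4.1%. A region at the floor in all 4 libraries cannot be higher in either genotype. In each library 39.5% to 40.8% of the regions it called were within 5% of the floor, while all regions of the stretch lay above it. The read pileup at the summit, as a multiple of the same floor, was higher by a median of 0.55 on the log2 scale, beside 0.62 for the background.

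The regions with a higher background extended past both ends of the rank stretch, from before Dlk1 to just past Mirg. From chr12:109437551, upstream of Dlk1, to chr12:109632390, in Rian, 25 consecutive shared regions had a higher background in both Hox-/- libraries. After 1 region in Rian that did not, at chr12:109640585-109641146, a further 9 consecutive regions did, up to chr12:109750364, just past the end of Mirg. From the start of the stretch to chr12:109750364 it was higher in 26 of 27 regions. At the region past Mirg, chr12:109749730-109750364, it was 1.84 and 2.03 times the floor in wt and 2.68 and 2.65 in Hox-/-. At the next, chr12:109766582-109766991, all 4 libraries were at the floor. Among the 57 shared regions from there to the right end of the domain, 2 had a higher and 6 a lower background in Hox-/-, beside 12% lower over all shared regions. Close neighbours had nearly the same background, so the counts of regions are not counts of separate measurements. In wt replicate 1 it was 8.32, 8.46 and 8.22 times the floor at the consecutive regions from chr12:109527441 to chr12:109529874.

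The size of this difference varied from place to place. At the Dlk1 start, chr12:109452806-109453400, the background was 1.60 and 1.67 times the floor in wt and 2.02 and 1.89 in Hox-/-. At chr12:109529496-109529874, in the interval before Meg3, it was 8.22 and 8.14 in wt and 11.8 and 10.1 in Hox-/-. In the part of Rtl1 that overlaps Mir540, chr12:109585915-109586374, it was 1.86 and 1.75 in wt and 3.19 and 3.24 in Hox-/-. From before Dlk1 to just past Mirg, background was highest before Meg3 in every library. The median log2 difference between genotypes was 0.40 between Dlk1 and Meg3, 0.70 in the Meg3 body and 0.63 in the Mirg body. Single regions departed from this, and chr12:109640585-109641146 in Rian had 0.10. At the Dio3 start it was 4.12 and 4.21 in wt and 4.17 and 3.81 in Hox-/-, and the genotypes overlapped. Over the domain the count of regions with a higher background was 37 of 102. With a library left out the rule is looser, over all regions as well. The count was 39 on removing the first or the second wt library, where the share over all shared regions was 6.35% and 8.27%. It was 41 on removing the first Hox-/- library and 46 on removing the second, where that share was 7.32% and 14.4%.

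**Figure D3:**
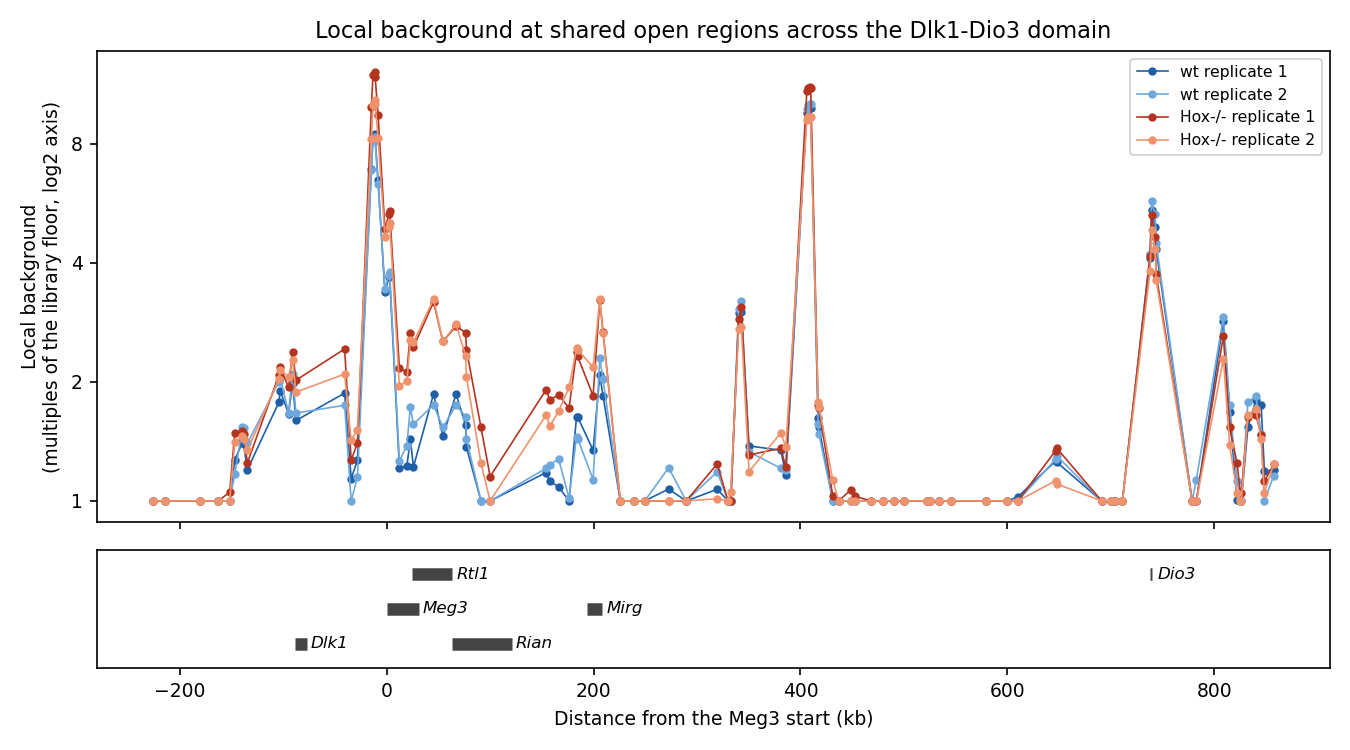
Local background at each shared region in the 4 libraries (multiples of each library's floor, log2 axis) against distance from the Meg3 start in kb, with gene bodies below. The Hox-/- lines lie above the wt lines from before Dlk1 to a region just past the end of Mirg, except at 1 region in Rian where a Hox-/- library is at 1, and at the next regions after that last one all 4 libraries are at 1.

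Calls that separated the genotypes were few and weak. Both Hox-/- libraries and neither wt library called 4 of 164 regions (2.44%, beside 1.23% of all regions). They were chr12:109549868-109550335 in Meg3, chr12:109660672-109661009 at the end of Rian, and chr12:109827405-109827751 and chr12:109973403-109973661 in the gap before Dio3. The region in Meg3 was listed at rank 109322 of 191704 peaks in Hox-/- replicate 1 and 174533 of 200214 in replicate 2, and that at chr12:109827405-109827751 at ranks 142948 and 137930. Both wt libraries and neither Hox-/- library called 3 of 164 (1.83%, beside 3.83%). They were chr12:109717745-109718331 beside the Mir543 region, and chr12:110233116-110233394 and chr12:110250445-110251168 before Dio3. Their list ranks ran from 178735 to 209482. With 1 library left out the rule is looser. Calls of Hox-/- only then numbered 5 without wt replicate 1 and 6 without wt replicate 2, of 162 regions each, beside 2.90% and 3.08% of all regions. They numbered 25 of 161 without Hox-/- replicate 1 and 8 of 146 without Hox-/- replicate 2, beside 5.88% and 4.95%. Calls of wt only numbered 7, 9, 12 and 10 in the same order of libraries left out, beside 10.3%, 9.65%, 6.83% and 9.17%.

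Hox-/- replicate 2 alone called 20 regions (12.2% of the domain's regions, beside 4.4% of all), and each of the other libraries alone called 4 (2.44% each), beside 5.15% of all regions for wt replicate 1, 5.83% for wt replicate 2 and 3.46% for Hox-/- replicate 1. Of the 20, 8 lay before the start of Meg3, 7 between it and the end of Mirg, and 5 beyond. The count of listed peaks overlapped between the genotypes, whose lists differ in length. It was 161 and 157 in wt and 149 and 163 in Hox-/-, which gives 159 ± 2.83 (SD, n = 2) and 156 ± 9.90 (SD, n = 2). As a share of each library's list this was 0.0753% and 0.0724% in wt and 0.0777% and 0.0814% in Hox-/-, which do not overlap. The difference in means, −3, became 15.5 among the 150000 strongest peaks of each library. Read totals are not in the peak lists, and relative depth was read from the floor of the background, which was 7.46 and 7.02 in wt and 4.77 and 7.36 in Hox-/-. Hox-/- replicate 1 was thus at 0.639 of the deepest library. The part of depth in these calls was not tested.

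**Figure D4:**
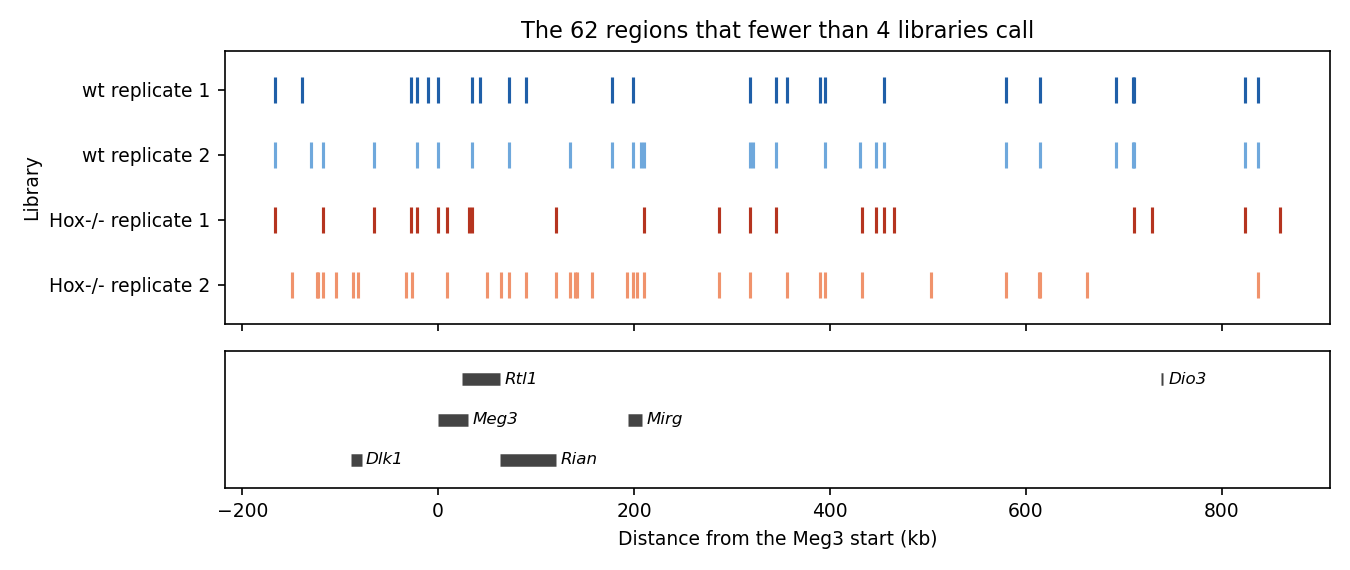
The 62 regions of the domain that fewer than 4 libraries call, as marks in each library that calls them, against distance from the Meg3 start in kb, with gene bodies below. The marks of Hox-/- replicate 2 include 20 regions that no other library calls, 8 before Meg3, 7 from Meg3 to the end of Mirg and 5 beyond.

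Genes that neighbour the 6 members and genes that act on the imprint were read at their strongest shared region within 1 kb. Of 15 neighbours, 13 had such a region, 3 ranked higher in both Hox-/- libraries and 2 lower, beside 20.5% and 20.3% of all shared regions, with a median shift of 0.06. The neighbour Dio3os lies inside the domain, and its region, 1 of the 3 higher, is the one at the Dio3 start. Wars and Wdr25 were read at the same region, and Yy1 is counted as higher among both the neighbours and the regulators. The lower were Degs2, a sphingolipid enzyme gene, at −0.50 and Ppp2r5c, a phosphatase subunit gene, at −0.67. Of 19 regulators, 15 had such a region, 6 were higher and 1 lower, beside the same 20.5% and 20.3%, with a median of 0.21. The 3 largest shifts were at Zfp57 and Trim28, whose proteins act together to hold imprints, with 0.66 and 0.63, and at Uhrf1, which brings the maintenance methyltransferase to DNA, with 0.85. Other regulators differed little or went the other way, such as Zfp445 at −0.16, Dnmt3l at −0.0078 and Tet2 at 0.02, and Dnmt1 had no such region. Both lists were ranked by −log10 p alone. At Zfp57 the ranks were 69641 and 64761 in wt and 41974 and 43005 in Hox-/-. Eed, of the Polycomb repressive complex, was the lower gene at −0.30. Expression was not measured in these libraries.

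Other imprinted loci were read over the shared regions within 100 kb of a named gene. Their median shifts ran from −0.08 at Grb10 to 0.39 at Mest, which rests on 7 regions, and 10 of 14 were above 0. The median over all shared regions was 0.0045. These loci were ranked by −log10 p alone, and some windows share regions, such as those of H19 and Igf2. The values at H19, Igf2 and Snrpn were 0.01, 0.00 and 0.12. By the same measure Meg3 had 0.37, Dlk1 0.25 and Dio3 −0.15. The windows of Dlk1 and Meg3 overlap, and the regions nearest to Dlk1 had a median of 0.11. Mest was thus slightly above Meg3 on this measure. Both Hox-/- libraries ranked higher in 71.4% of the regions at Mest and 72.0% of the 25 at Meg3, and lower in 28.6% of those at Mest and 0 of those at Meg3. Over all shared regions 20.5% ranked higher and 20.3% lower.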

How the data were processed

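ATAC-seq peak lists of 2 wt and 2 Hox-/- libraries of mouse ES cells were used. Per the submitters' processing notes the tools were cutadapt 4.8, Bowtie2 2.5.0, Picard 2.18.2, bedtools 2.30.0, MACS2 2.2.9.1 and deepTools 3.5.4, with build mm10; parameters and any pooling are not given in the sources used here. The deposited lists are one per library and give for each peak a fold (ratio) at the summit, with the authors' −log10 p and −log10 q; the lowest −log10 q is 1.30 in each list. These are the authors' values and were used to rank peaks within a list.

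Peaks were joined, ranked and scanned with Python 3.11.15, numpy 2.4.6 and pandas 2.3.3; figures used matplotlib 3.10.9. Local background was solved from fold = (pileup + 1)/(background + 1) and the Poisson upper tail; at least 99.999% of solved pileups lay within 0.01 of a whole number. A library's floor is the 0.1% quantile of its background. Gene positions are RefSeq GRCm38.p6; exons were not used here. Regions named are those at the ends of the 6 genes, at the ends of the stretch, the 5 with the largest and the 5 with the smallest shift, the 5 with the best mean rank, and those called in 1 genotype; others were chosen after their values were seen. The members and lists were chosen with earlier results of these data known. No significance test was run. Same-numbered replicates did not pair: their deviations had a correlation of 0.00402 over 122787 regions. Alternatives were the value ranked, the list ranked, a −log10 q minimum of 5, the 150000 strongest peaks, summits joined within 100 bp, other windows and thresholds, and leaving out each library.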

Additional observations from a re-analysis of the deposited data

How the results depend on the processing

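The tolerance was a set ratio for counts, an unchanged position for the ends of the stretch, and the larger genotype SD for the median shift and the peak difference. A count can thus pass although its share over all regions changed. Of 77 alternatives, 39 left a result within the set tolerance, 35 moved it and 3 reversed it. Those on the local background were chosen after seeing the data. The cause was not tested. The difference in listed peaks, −3 in Hox-/- against wt, became 15.5 among the 150000 strongest peaks of each library, 2.5 for merged intervals and 4 without Hox-/- replicate 1, within a range of −10 to 4 over the libraries left out. The median shift was 0.0508 when ranked by fold and 0.19 with ranks in the whole list. The stretch ended at 109641146 with whole-list ranks and at 109608197 with peaks of −log10 q of at least 5; with summits joined within 100 bp it ran from 109527604 to 109632236. With windows of 9 regions it ran from 109525663 to 109566932, and with 25 regions it began at 109542717. At a threshold of 0.25 it ran from 109512141 to 109699114, and at 0.45 from 109532088 to 109553619. Ranked by fold, no stretch was found in the domain and neither end has a value, so this loss is not counted among the 77. Regions called in Hox-/- only numbered 2 of 132 at −log10 q of at least 5, beside 1.00% of all, and those in wt only 8 of 230 with joined summits, beside 4.22%. With each library left out in turn, the median shift ranged from 0.0822 to 0.17, regions ranked higher from 53 to 60, regions ranked lower from 20 to 25, the start from 109512141 to 109527455, the end from 109553590 to 109632390, calls in Hox-/- only from 5 to 25, calls in wt only from 7 to 12, and regions with a higher background from 39 to 46. Leaving a library out loosens the rule for these counts over all regions too, where 34.3% to 37.1% then ranked higher and 33.8% to 36.02% lower. With a replicate block (the order held in both same-numbered pairs), 49 regions ranked higher and 17 lower, beside 28.3% and 27.9% of all shared regions, the median shift was 0.10 and 37 regions had a higher background, beside 5.36%; the numbers do not pair the samples, with a correlation of 0.00402. Hox-/- replicate 1 is the shallowest library, which limits what its absent calls show.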
